A study of Mus musculus with 6 samples.

Results

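Expression of 36 genes that encode enzymes of glycolysis, the pentose phosphate pathway and glycogen metabolism was examined in the wasting epididymal white adipose tissue (eWAT) of cachectic mice. The genes were taken by name, as members of these pathways, from the 54532 genes listed in the count table, and all 36 were among the 16003 genes with enough counts to be tested. This fat pad, which lies along the epididymis, was collected on day 21 from male C57BL/6 mice, obtained at an age of 6 to 10 weeks. The cachexia group comprised 3 mice that had been inoculated subcutaneously with LLC (Lewis lung carcinoma) cells, a transplantable mouse lung cancer line, and that had lost body weight beyond the limit by which the study defined cachexia. The control group comprised 3 mice that were not cachectic, and whether they received an injection is not given in the sources used here. The labels name no other allele or agent in either group, and the model rests on a single cell line injected under the skin. Total RNA of each fat pad was sequenced.

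Glycolysis splits glucose into pyruvate in a series of reactions that yield ATP, and lactate dehydrogenase interconverts pyruvate and lactate. The pentose phosphate pathway leaves glycolysis at glucose 6-phosphate. Its oxidative branch produces NADPH, the reductant that fat cells use to build fatty acids, and its non-oxidative branch returns sugars to glycolysis. Glycogen is the stored polymer of glucose. Fat cells hold a small pool of it, and they also use glycolysis to make the glycerol 3-phosphate on which triglycerides are assembled.

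Total counts were between 18475204 and 18855546 in control mice and between 14928766 and 17278966 in cachectic mice, so every cachectic mouse had fewer reads counted in genes than every control mouse. Control replicate 1 stood apart from the other controls on the second component of a principal component analysis, and 24552 genes had a count in it against 22607 to 23038 in the other mice. The summed expression of 7 adipocyte markers overlapped between the groups (9972 to 13601 CPM in control mice and 9969 to 15304 CPM in cachectic mice, where CPM is the count scaled by the TMM-normalized library size), and 1 of the 7, Cidec, was significantly higher in cachectic mice. Of the 7, 5 had negative log2 fold changes, and Plin1 and Retn, at -1.44 and -0.60, were below in every cachectic mouse without passing edgeR's test, although DESeq2 called Plin1. The 6 tested of 8 neutrophil markers were all significantly higher, led by Retnlg, S100a8, S100a9, Cxcr2 and Csf3r, and the list of 8 summed to 27.9 to 48.0 CPM in control mice and 238 to 613 CPM in cachectic mice. All 6 tested of 7 erythroid markers, led by Alas2, Hba-a1, Slc4a1, Hbb-bs and Hbb-bt, were also significantly higher (252 to 451 against 1334 to 2856 CPM), as were 3 of 5 endothelial markers, Pecam1, Cldn5 and Cdh5 (1303 to 1358 against 1908 to 2708 CPM). Of 5 fat progenitor markers, 2 were significantly lower, Col1a1 and Pi16, and the list summed to 2835 to 3013 CPM in control mice and 1853 to 2605 CPM in cachectic mice. Of 7 macrophage markers, 1 was significantly lower, Mrc1, with list sums of 1230.1 to 1565 CPM and 941 to 1424 CPM. Skeletal muscle markers summed to 60.9 to 104 CPM and 13.1 to 77.2 CPM, with 4 of 8 tested and Myl1 significantly lower. Acta1 and Myl1 made up most of this sum in each mouse. Myh4, a defining muscle marker, had no count in any mouse, and Ckm, Myh1, Mylpf, Tnnt3 and Atp2a1 were at most at 1.31 CPM. Across all genes tested, 9% were significantly higher and 8.63% significantly lower. The part of these cell types in the values below was not tested, and in whole tissue fewer cells of a type and less RNA per cell cannot be told apart.

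Of the 36 enzyme genes, 8 changed significantly in cachectic mice (22.2%; edgeR's quasi-likelihood test with Benjamini-Hochberg adjustment over all 16003 genes, adjusted p-value under 0.05). The same test called 2821 of all genes tested (17.6%), so in this fit the share of enzyme genes called was close to the background. Expression of 6 genes fell, namely Pgd, Hk2, Tpi1, Pfkfb4, Eno1 and Pygm, and expression of 2 genes rose, namely Eno3 and Gyg. Of all genes tested, 8.63% were called lower and 9% higher. The other 28 enzyme genes did not pass the test. The point estimates leaned downward, with 28 of the 36 log2 fold changes below 0 and a median of -0.37, whereas 8037 of the 16003 genes tested were below 0 with a median of -0.0031. The values of the 2 groups did not overlap for 15 of the 36 genes (41.7%), 5 with every cachectic mouse above every control mouse and 10 with every cachectic mouse below. Across all genes tested this share was 40.5%, with 20.4% above and 20.1% below. Each of these 15 genes had a two-sided exact permutation p-value of 0.1, the smallest this number of mice allows. The number of enzyme genes called rested on single mice: it was 2 without control replicate 3, 4 without control replicate 2 and 12 without control replicate 1, where 5.02%, 7.92% and 13.4% of all genes tested were called. DESeq2 called 16 of the 36, against 24.3% of all genes. With no filter 8 of the 36 were called against 8.98% of all genes, and with plain library totals 7 against 16.4%. The share of enzyme genes called was above that of all genes in every setting tried, by margins that varied and were not tested. Pgd and Hk2 passed the threshold under all 17 other settings tried.

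**Figure D1:**
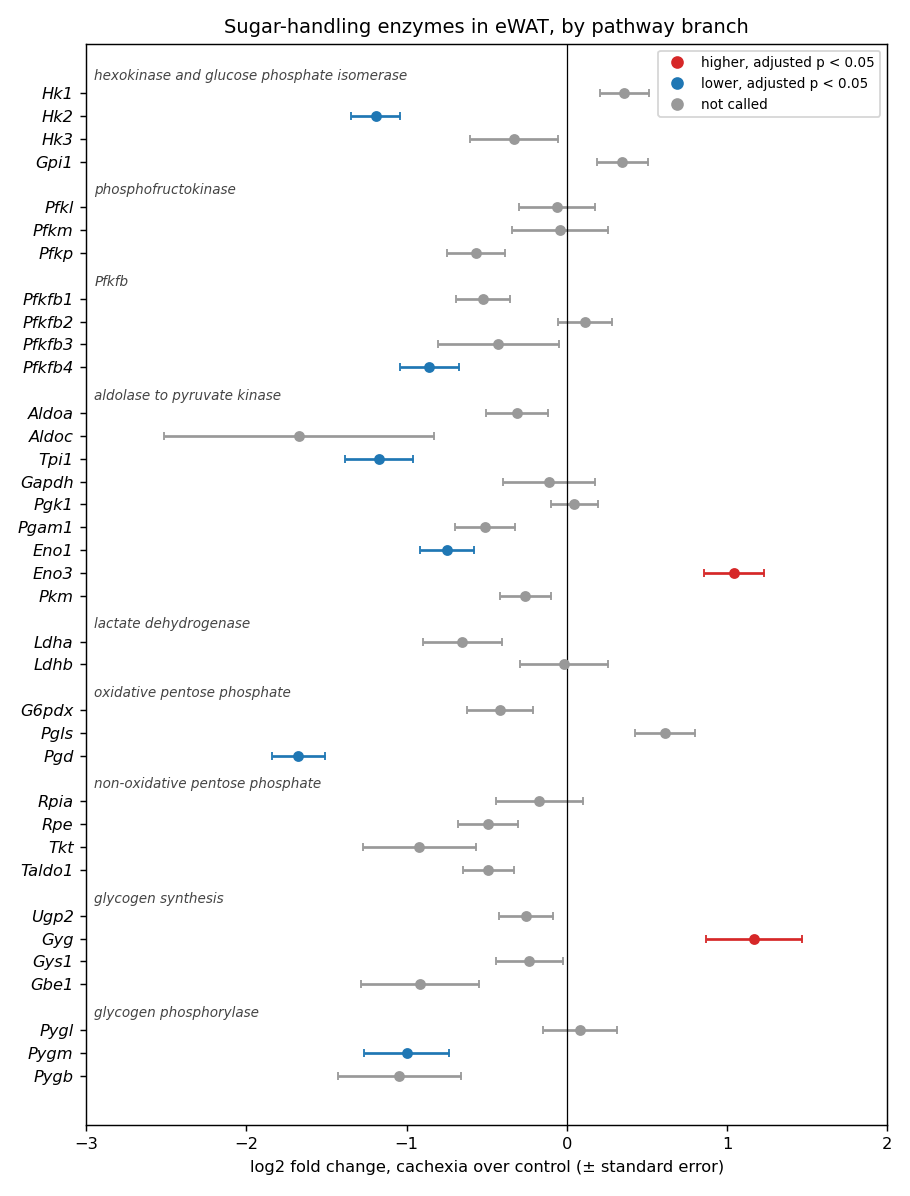
Log2 fold change of cachectic over control mice for each of the 36 enzyme genes, ordered by branch of the pathway, with bars of 1 standard error (n = 3 mice in each group) and the genes that passed the test marked by color. Most points lie left of 0, and the 8 genes that passed the test are spread over 6 of the branches.

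Among the enzymes that capture glucose in the cell, Hk2 changed and its relatives did not pass the test. Hk2 encodes hexokinase 2, the isozyme of insulin-responsive tissues, which phosphorylates glucose so that it cannot leave the cell. Its expression was 108, 119.7 and 130.4 CPM in control mice and 43.9, 60.4 and 52.1 CPM in cachectic mice. Every cachectic mouse lay below every control mouse, and the lowest control value was well above the highest cachectic value. Hk2 fell 2.29-fold, with a log2 fold change of -1.19 ± 0.16 (SE; adjusted p = 0.00374, edgeR with Benjamini-Hochberg). The gene lies on the minus strand of chromosome 6, from 82725025 to 82774454, and an antisense gene within it, Gm17034, had 11 counts or fewer in each mouse.

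Hk1, the hexokinase found in nearly all cells, was at 34.3 to 47.7 CPM in control mice and 49.2 to 51.5 CPM in cachectic mice, with a log2 fold change of 0.36 ± 0.15 (SE) that did not pass the test. The unadjusted edgeR p-value of Hk1 was 0.0454, and it passed the test without control replicate 1. Hk3, a hexokinase of white blood cells, overlapped between the groups at 7.11 to 13.1 and 7.0 to 7.67 CPM. The neutrophil marker sum was higher in the same cachectic mice, as given above. Gpi1, which converts glucose 6-phosphate to fructose 6-phosphate, was at 217 to 225 CPM in control mice and 248 to 337 CPM in cachectic mice. It had a log2 fold change of 0.35 ± 0.16 (SE) and did not pass either, although all cachectic mice were above all control mice. The make-up of hexokinase expression within a mouse also differed between the groups. On a scale of counts per kilobase of gene length, Hk2 made up 70.1%, 77.1% and 73.8% of hexokinase expression in control mice and 48.4%, 55.5% and 52.7% in cachectic mice. The share of Hk1 was 17.1% ± 4.04 (SD, n = 3) in control mice and 35.6% ± 3.07 (SD, n = 3) in cachectic mice. On this scale Hk2 was still the most abundant hexokinase in each cachectic mouse. In CPM, without division by length, Hk1 was above Hk2 in cachexia replicate 1 (50.6 against 43.9 CPM). The gene lengths used, 8532 bases for Hk1 and 5969 for Hk2, exceed their longest coding transcripts of 4278 and 5513 bases. These shares do not depend on how the libraries were scaled. The shares and the ranking do depend on the length used, and they were not tested.

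Hk2 and both enolase genes described below are shown with the 250 bases before a RefSeq transcription start on GRCm38.p6, because they are the called genes of glycolysis in which this window contains no annotated exon and at least 1 match to the core of the hypoxia response element. The letters searched were ACGTG and GCGTG on both strands, and the matches are in capitals (CACGT and CACGC are the same letters read on the other strand). ACGTG also lies within CACGTG, the E-box bound by MYC and by the glucose-responsive factor ChREBP. Each sequence reads 5′ to 3′ along the strand of its gene.
Hk2, chr6:82774455-82774704, minus strand: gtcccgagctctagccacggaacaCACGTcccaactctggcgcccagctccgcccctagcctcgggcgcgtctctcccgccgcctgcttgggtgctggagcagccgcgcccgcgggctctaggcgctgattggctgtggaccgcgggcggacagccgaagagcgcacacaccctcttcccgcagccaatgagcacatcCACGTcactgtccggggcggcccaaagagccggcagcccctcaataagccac
Eno1, chr4:150236458-150236707, plus strand: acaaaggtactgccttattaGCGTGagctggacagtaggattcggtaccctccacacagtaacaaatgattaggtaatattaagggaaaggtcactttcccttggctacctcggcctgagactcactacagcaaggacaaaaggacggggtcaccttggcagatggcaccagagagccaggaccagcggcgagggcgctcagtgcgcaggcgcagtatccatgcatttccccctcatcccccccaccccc
Eno3, chr11:70656926-70657175, plus strand: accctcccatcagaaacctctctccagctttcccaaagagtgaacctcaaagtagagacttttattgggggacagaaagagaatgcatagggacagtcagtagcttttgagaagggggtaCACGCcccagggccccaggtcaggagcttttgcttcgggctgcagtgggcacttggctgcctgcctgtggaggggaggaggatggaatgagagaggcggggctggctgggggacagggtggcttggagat
These windows were shown because they hold a match, so the presence of a match in them is not a result. Hk2, which fell, held 2 matches in this window. Eno1, which fell, and Eno3, which rose, held 1 match each. The window of Tpi1, which also fell, held 0, and further windows of Eno1, which contain exons, held 2 each. Such letters are common: 38.6% of 32851 promoter windows of this length in the RefSeq table held at least 1 match, against 41 of the 55 windows of the enzyme genes (74.5%). A match is a description of the letters and not of binding.

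Phosphofructokinase, which commits sugar to glycolysis, showed none of its 3 genes past edgeR's test, and 1, Pfkp, had an unadjusted p-value under 0.05 and was called lower by DESeq2. Its most abundant isozyme per kilobase, Pfkl, was at 107, 125 and 127 CPM in control mice and 119, 150.1 and 75.4 CPM in cachectic mice. The cachectic values spanned the control values on both sides. The muscle isozyme Pfkm was at 25.7 to 28.3 and 13.9 to 32.9 CPM, and the platelet isozyme Pfkp at 92.5 to 124 and 67.8 to 92.6 CPM. They had log2 fold changes of -0.04 ± 0.30 (SE) and -0.57 ± 0.18 (SE). Pfkfb enzymes make and degrade fructose 2,6-bisphosphate, the strongest activator of phosphofructokinase, and 1 of the 4 changed. Pfkfb4 was at 17.6, 15.7 and 16.3 CPM in control mice and 9.68, 10.3 and 7.34 CPM in cachectic mice. Both groups were tight and well separated. Pfkfb4 fell 1.81-fold, with a log2 fold change of -0.86 ± 0.18 (SE; adjusted p = 0.0199, edgeR with Benjamini-Hochberg). The call was lost without control replicate 2 or control replicate 3, with Benjamini-Hochberg adjusted edgeR p-values up to 0.0805.

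Pfkfb4 was nonetheless a minor member of its family. Pfkfb3, the inducible isozyme with high kinase activity, accounted for 78.0% of Pfkfb expression per kilobase in control mice and 77.5% in cachectic mice. Its values were 393, 716 and 625 CPM in control mice and 582, 491 and 215 CPM in cachectic mice. The spread within each group was wide and the groups overlapped, so that a log2 fold change of -0.43 carried a standard error of 0.38. Pfkfb1, the isozyme known from liver and muscle, was below in every cachectic mouse (39.1 to 49.2 against 50.8 to 74.3 CPM), with a log2 fold change of -0.53 ± 0.17 (SE) that did not pass edgeR's test but was called by DESeq2. Pfkfb2, an isozyme of the heart, was at 12.5 to 13.6 and 12.5 to 16.4 CPM. It shares 23.9% of its 100-base stretches with the transcripts of another annotated gene.

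Of the 9 branches, the reactions from aldolase to pyruvate kinase had the highest summed expression per kilobase in every mouse. Aldoa, which splits fructose 1,6-bisphosphate, was the most abundant of the 36 genes in control mice by the counts assigned to each gene, at 416 ± 32.5 (SD, n = 3) CPM per kilobase. It was at 1117, 1306 and 1212 CPM in control mice and 974, 1130.3 and 822 CPM in cachectic mice. The groups overlapped, and its log2 fold change was -0.31 ± 0.19 (SE). Aldoc, the aldolase of the brain, was at 6.52 CPM in control replicate 1 and between 0.459 and 1.17 CPM in the other 5 mice. Tpi1 encodes triosephosphate isomerase, which interconverts the products of aldolase, glyceraldehyde 3-phosphate and dihydroxyacetone phosphate. The latter is the precursor of glycerol 3-phosphate. Tpi1 was at 363, 339 and 354 CPM in control mice and 184, 175 and 109 CPM in cachectic mice. Control mice varied little, and each cachectic value was below every control value. Tpi1 fell 2.25-fold, with a log2 fold change of -1.17 ± 0.21 (SE; adjusted p = 0.0108, edgeR with Benjamini-Hochberg). Without control replicate 3 the edgeR p-value, Benjamini-Hochberg adjusted, was 0.0502. Tpi1 lies on the minus strand of chromosome 6, from 124810586 to 124814296, and overlaps Spsb2 on the other strand, which had 88 to 192 counts per mouse. Whether strand was used in counting is not given in the sources used here.

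The enolases, which make phosphoenolpyruvate, moved in opposite directions. Eno1, the enolase of most tissues, was at 622, 757 and 586 CPM in control mice and 382, 414 and 374 CPM in cachectic mice. All cachectic mice were below all control mice. Eno1 fell 1.68-fold, with a log2 fold change of -0.75 ± 0.17 (SE; adjusted p = 0.0224, edgeR with Benjamini-Hochberg). Eno3, the enolase of skeletal muscle, was at 10.5, 7.34 and 7.99 CPM in control mice and 18.2, 16.9 and 18.2 CPM in cachectic mice. Here the cachectic mice formed a narrow band above the controls. Eno3 rose 2.06-fold, with a log2 fold change of 1.04 ± 0.19 (SE; adjusted p = 0.0106, edgeR with Benjamini-Hochberg). Skeletal muscle markers, mostly Acta1 and Myl1 as given above, summed to 60.9 to 104 CPM in control mice and 13.1 to 77.2 CPM in cachectic mice. The part of muscle in the value of Eno3 was not tested. Eno3 was still the lesser enolase, at 3.97% ± 1.03 (SD, n = 3) of the summed Eno1 and Eno3 expression per kilobase in control mice and 12.4% ± 1.03 (SD, n = 3) in cachectic mice. The gene length used was 5379 bases for Eno1, against 2027 for its longest coding transcript, and 1739 against 1564 for Eno3. With transcript lengths the share of Eno3 would be smaller. Among the fits that left out 1 mouse, the call of Eno1 was lost without control replicate 2, control replicate 3 or cachexia replicate 1, and that of Eno3 without control replicate 3, where its Benjamini-Hochberg adjusted edgeR p-value was 0.0592. Eno1 also shares 59.0% of its 100-base stretches with transcripts of 4 other annotated genes, among them Eno1b, which had 327, 368 and 462 counts in control mice and 172, 152 and 88 in cachectic mice.

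**Figure D2:**
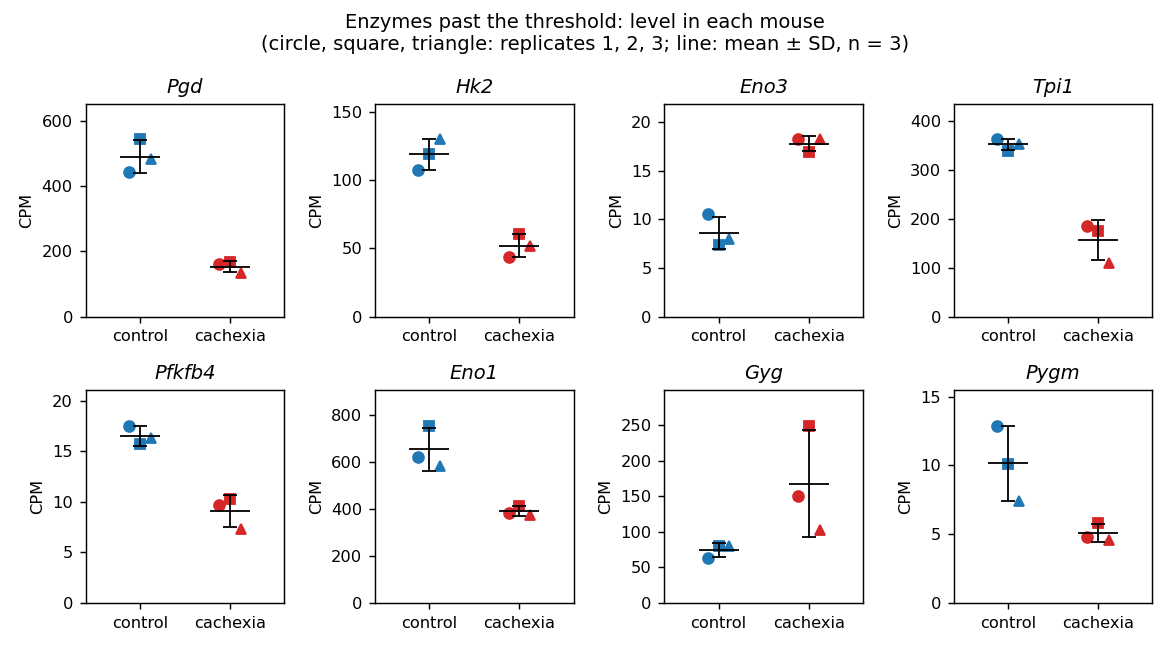
Expression in CPM of the 8 enzyme genes that passed the test, with 1 point for each mouse and a line at the mean of each group (n = 3 mice in each group). In all 8 panels the points of cachectic and control mice do not overlap, with Eno3 and Gyg higher and the other 6 lower in cachectic mice.

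Several housekeeping enzymes share sequence with annotated copies, so that their counts may be too high or too low for the gene. Gapdh, which encodes glyceraldehyde 3-phosphate dehydrogenase and is often used as a reference gene, had 78 to 157 counts per mouse, or 1.46 CPM per kilobase in control mice, below Aldoa and Tpi1, which encode its neighbors in the pathway. Its transcript shares 78.0% of its 100-base stretches with transcripts of 84 other annotated genes, which together had 183 to 291 counts per mouse. How reads that fit several genes were counted is not given in the sources used here. Pgk1, the next enzyme, shares 67.0% of such stretches with 3 genes, which together had 8 to 18 counts per mouse, and Pgam1, a phosphoglycerate mutase, shares 39.7% with 2 genes, which had 11 to 42. Pgk1 was at 120.5 to 134 CPM in control mice and 108 to 145 CPM in cachectic mice, and Pgam1 at 128 to 160.0 and 76.2 to 120.0 CPM. Their log2 fold changes of 0.05 ± 0.15 (SE) and -0.51 ± 0.19 (SE) did not pass the test, and neither did that of Gapdh (-0.11 ± 0.29, SE), so these values are uncertain, as is the fall of Eno1 given above. Of the 36 genes, 25 share no such stretch and 6 share under 10%. Pkm, the pyruvate kinase of most tissues outside the liver, was slightly lower in every cachectic mouse (254 to 339 against 354 to 373 CPM), with a log2 fold change of -0.26 ± 0.16 (SE) that did not pass the test.

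Ldha, the lactate dehydrogenase subunit that favors lactate production, was the second most abundant of the 36 genes per kilobase. It was at 819.7, 1294 and 1172 CPM in control mice and 721, 538 and 831 CPM in cachectic mice. Control replicate 1 was the lowest control and lay below the highest cachectic mouse, so that the groups overlapped. Its log2 fold change of -0.65 ± 0.25 (SE; adjusted p = 0.107, edgeR with Benjamini-Hochberg) did not pass. DESeq2 called Ldha lower. Ldhb, the subunit of the heart, was at 86.6 to 98.0 CPM in control mice and 53.2 to 124 CPM in cachectic mice.

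In the oxidative branch of the pentose phosphate pathway, the last enzyme changed and the first did not pass the test. G6pdx encodes glucose 6-phosphate dehydrogenase, which makes the first NADPH. It was at 204 to 255 CPM in control mice and 127 to 211 CPM in cachectic mice, with a log2 fold change of -0.42 ± 0.21 (SE). Pgls, the lactonase that follows it, was above in every cachectic mouse (83.4 to 139 against 70.4 to 73.7 CPM), with a log2 fold change of 0.61 ± 0.19 (SE; adjusted p = 0.0585, edgeR with Benjamini-Hochberg). DESeq2 called Pgls higher, as did edgeR without cachexia replicate 3 and with protein-coding genes alone. Pgd encodes 6-phosphogluconate dehydrogenase, which makes the second NADPH and releases a carbon as CO2. It was at 443, 544 and 484 CPM in control mice and 159.6, 167 and 134 CPM in cachectic mice. Among the 36 genes Pgd had the greatest separation of the groups relative to its error. It fell 3.20-fold, with a log2 fold change of -1.68 ± 0.16 (SE; adjusted p = 0.00164, edgeR with Benjamini-Hochberg), and its log2 fold change was between -1.75 and -1.58 in all 17 other settings tried. Pgd lies on the minus strand of chromosome 4, from 149149991 to 149166771, where no other annotated gene overlaps it, and it shares no 100-base stretch with other transcripts.

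All 4 genes of the non-oxidative branch had negative log2 fold changes, and none passed edgeR's test. At an unadjusted edgeR p-value under 0.05 there were 3 of the 4, and the share of all genes under that limit is not given here. DESeq2 called 2, Tkt and Taldo1, where it called 24.3% of all genes tested. Transketolase, encoded by Tkt, moves carbon units between sugar phosphates, and its transcript varied widely among control mice. Control replicate 1 was at 535 CPM, level with the cachectic mice at 516 to 618 CPM, whereas the other controls were at 1526 and 1150.4 CPM. The log2 fold change of Tkt was -0.92 ± 0.35 (SE; adjusted p = 0.108, edgeR with Benjamini-Hochberg), and it passed the test without control replicate 1. Taldo1, the transaldolase, was at 379.9 to 465 CPM in control mice and 276 to 338 CPM in cachectic mice, with a log2 fold change of -0.49 ± 0.16 (SE; adjusted p = 0.0719, edgeR with Benjamini-Hochberg). Rpia and Rpe, which interconvert pentose phosphates, were at 23.2 to 36.9 and 67.8 to 107 CPM in control mice and 17.5 to 34.7 and 62.8 to 70.9 CPM in cachectic mice. They had log2 fold changes of -0.17 ± 0.27 (SE) and -0.49 ± 0.19 (SE).

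The summed expression per kilobase of each branch shows how the abundant genes weighed. In 4 of the 9 branches the sum was lower in every cachectic mouse than in every control mouse. Of single genes tested, 20.1% were lower in this way. A sum can separate where its genes do not, as Ldha, Ldhb and Tkt each overlapped between the groups. From aldolase to pyruvate kinase it was 835, 940.0 and 857 CPM per kilobase in control mice and 672, 727 and 545 in cachectic mice. The lactate dehydrogenases summed to 310.1 to 446 and 241 to 285 CPM per kilobase, and the oxidative branch to 154 to 181 and 104 to 114. The non-oxidative branch summed to 275 to 460.1 and 223 to 261, with control replicate 1 the nearest to the cachectic mice. Sums of the other 5 branches overlapped between the groups. Neighboring branches thus did not separate equally, and the sums were not tested.

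**Figure D3:**
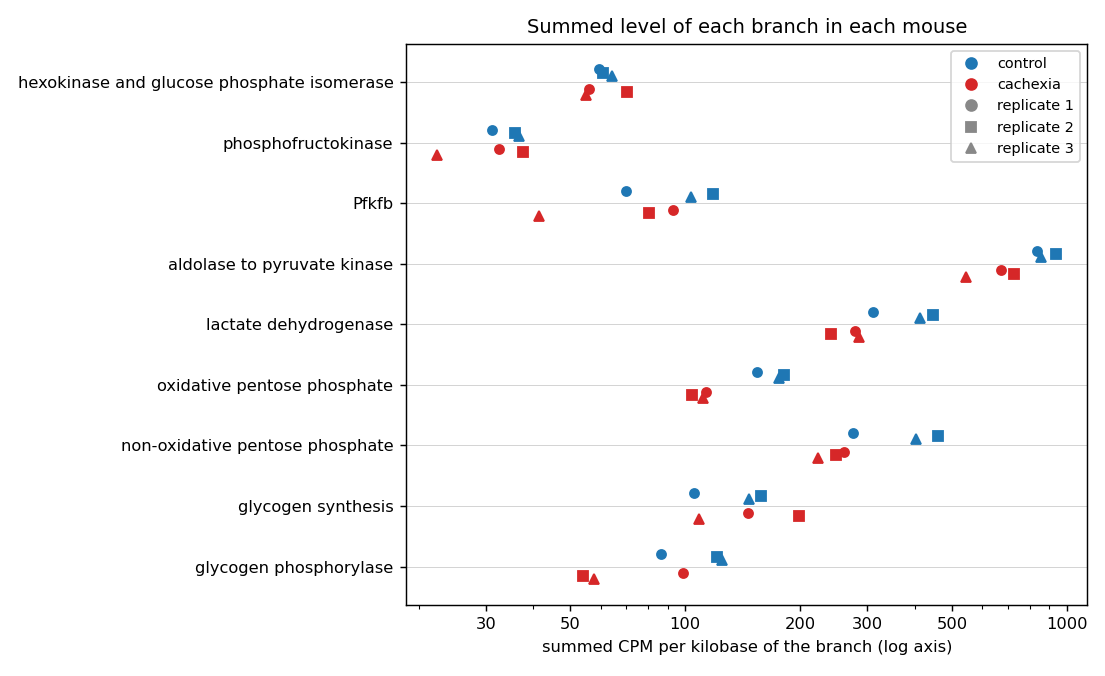
Summed expression in CPM per kilobase of gene length for each of the 9 branches, on a log axis, with 1 point for each mouse (n = 3 in each group). Points of the groups do not overlap for aldolase to pyruvate kinase, the lactate dehydrogenases and both branches of the pentose phosphate pathway, where all cachectic mice are lower.

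Among glycogen genes, the primer rose and a phosphorylase fell. Gyg encodes glycogenin, which primes a new glycogen particle by attaching the first glucose units to itself. It was at 63.9, 79.5 and 80.5 CPM in control mice and 151, 249.8 and 103 CPM in cachectic mice. The cachectic mice differed widely from each other, and each was above every control mouse. Gyg rose 2.25-fold, with a log2 fold change of 1.17 ± 0.30 (SE; adjusted p = 0.0347, edgeR with Benjamini-Hochberg). Its call was lost under 8 of the 17 other settings, among them those that left out any control mouse, cachexia replicate 1 or cachexia replicate 2, and those with log2 FPKM values, with an adjusted p-value up to 0.103 by Benjamini-Hochberg adjustment and log2 fold changes from 0.77 to 1.43 over all settings. Ugp2, which makes the UDP-glucose that glycogen synthase uses, Gys1, the glycogen synthase of tissues outside the liver, and Gbe1, the branching enzyme, did not pass the test. In control and cachectic mice, Ugp2 was at 112 to 165 and 107 to 128 CPM, and Gys1 at 127 to 171 and 90.7 to 147 CPM. The log2 fold changes of the 3 genes were -0.25 ± 0.17 (SE), -0.23 ± 0.21 (SE) and -0.92 ± 0.37 (SE). Gbe1 varied among controls as Tkt did, at 81.4 CPM in control replicate 1 against 213 and 171 CPM in the other controls and 57.6 to 113 CPM in cachectic mice. DESeq2 called Gbe1 lower, and edgeR did so without control replicate 1.

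Glycogen phosphorylases release glucose 1-phosphate from glycogen. Pygm, the muscle isozyme, was at 12.9, 10.1 and 7.42 CPM in control mice and 4.78, 5.83 and 4.59 CPM in cachectic mice. The groups did not overlap, although the lowest control was close to the highest cachectic mouse. Pygm fell 2.00-fold, with a log2 fold change of -1.0 ± 0.27 (SE; adjusted p = 0.0383, edgeR with Benjamini-Hochberg). The call was lost under 8 of the 17 other settings, among them the omission of any of the 6 mice and plain library totals, with an adjusted p-value up to 0.104 by Benjamini-Hochberg adjustment. Skeletal muscle markers, mostly Acta1 and Myl1, summed lower in cachexia replicates 1 and 2 than in any control. The part of muscle in the value of Pygm was not tested. Pygb, the brain isozyme, was the most abundant phosphorylase of control eWAT. It was at 299, 404 and 437 CPM in control mice and 310.4, 135 and 107 CPM in cachectic mice. Cachexia replicate 1 lay within the control range, and the log2 fold change of -1.04 ± 0.39 (SE; adjusted p = 0.101, edgeR with Benjamini-Hochberg) did not pass. It passed without cachexia replicate 1 and with DESeq2. Pygl, the liver isozyme, was at 139 to 233 CPM in control mice and 167 to 234 CPM in cachectic mice, with a log2 fold change of 0.08 ± 0.23 (SE). Within each mouse, Pygl made up 23.4%, 27.9% and 25.5% of phosphorylase expression per kilobase in control mice and 33.2%, 44.8% and 58.9% in cachectic mice. Its share was thus higher in every cachectic mouse, and on this scale it was above that of Pygb, at 38.6%, in cachexia replicate 3. In CPM, Pygl was above Pygb in cachexia replicate 2 as well (167 against 135 CPM). The gene length used for Pygl was 6895 bases, against 2992 for its longest coding transcript, and for Pygb 4809 against 3909. The ranking of Pygl and Pygb in cachectic mice thus depends on the length used.

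**Figure D4:**
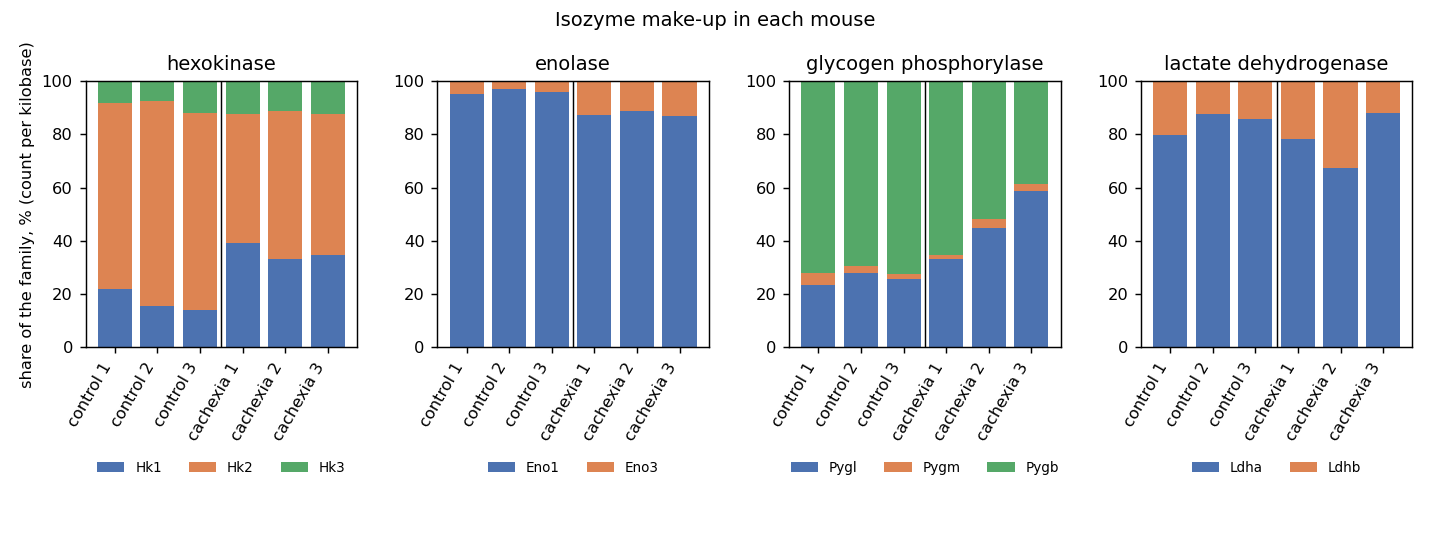
Share in percent of each isozyme in the summed expression of its family, per kilobase of gene length, for each mouse (n = 3 in each group). The shares depend on the gene length used. Hk2 lies between 70.1% and 77.1% in control mice and between 48.4% and 55.5% in cachectic mice, and the shares of Eno3 and Pygl are higher in every cachectic mouse.

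Further genes of the same pathways were examined as lists, beside all genes tested, of which 9% were called higher and 8.63% lower. Of 19 other glycolysis and gluconeogenesis enzymes, 11 were tested and none passed edgeR's test, with a median log2 fold change of 0.11. Bpgm, an enzyme best known from red blood cells, had an unadjusted p-value under 0.05, and DESeq2 called it. Of 11 other pentose phosphate enzymes, 8 were tested and 1 fell, Dera, which cleaves deoxyribose phosphate (log2 fold change -0.58, adjusted p = 0.0334, edgeR with Benjamini-Hochberg). H6pd, which carries out the first oxidative steps inside the endoplasmic reticulum, was above in every cachectic mouse (557 to 846 against 351 to 488 CPM). Its log2 fold change of 0.63 ± 0.22 (SE) did not pass edgeR's test, and DESeq2 called it. Of 28 other glycogen genes, 26 were tested, of which 1 rose and 4 fell, with a median of -0.10. Epm2a, the phosphatase laforin that acts on glycogen, rose (log2 fold change 1.03). Ppp1r3d and Ppp1r3c, subunits that bring protein phosphatase 1 to glycogen, fell (log2 fold changes -1.57 and -1.83). Phka2, a regulatory subunit of phosphorylase kinase, fell as well (log2 fold change -0.73).

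Other sources of NADPH included genes that fell as Pgd did. Of 11 such enzymes, 9 were tested, 4 fell and none rose by edgeR's test, with a median of -0.56. Across all genes tested, 8.63% were called lower and 9% higher. Aldh1l1 and Me3, with positive log2 fold changes of 0.99 and 1.08, had unadjusted p-values under 0.05 and were called by DESeq2. Me1, the cytosolic malic enzyme, was at 538 to 1661 CPM in control mice and 174 to 248 CPM in cachectic mice (log2 fold change -2.27 ± 0.40 SE; adjusted p = 0.00974, edgeR with Benjamini-Hochberg). Idh1, the cytosolic isocitrate dehydrogenase, was at 337 to 448 and 84.1 to 157 CPM (log2 fold change -1.65 ± 0.25 SE; adjusted p = 0.00583, edgeR with Benjamini-Hochberg). For both genes the groups were far apart. Mthfd1 and Mthfd2, enzymes of folate metabolism, had log2 fold changes of -0.48 and -1.83.

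Of 13 transcription factors that act on genes of these pathways, 3 rose and 1 fell, with a median of 0.05. Across all genes tested, 9% were called higher and 8.63% lower. Srebf1, which encodes a factor that drives genes of fatty acid synthesis, was at 514 to 602 CPM in control mice and 83.8 to 264 CPM in cachectic mice (log2 fold change -1.79 ± 0.38 SE; adjusted p = 0.0188, edgeR with Benjamini-Hochberg). Its level was far lower in each cachectic mouse. Epas1 and Arnt, which encode HIF-2 alpha and its partner, and Mlxip, a relative of ChREBP, rose (log2 fold changes 0.71, 0.64 and 0.95). Hif1a itself overlapped between the groups, at 119 to 135 and 98.7 to 127 CPM. Of 15 targets of hypoxia-inducible factors outside glycolysis, 13 were tested, 3 rose and 2 fell, beside the same shares of all genes, with a median of 0.38. Those that rose were Ddit4, an inhibitor of mTORC1 signaling, Bnip3, a mitophagy receptor, and Ndrg1 (log2 fold changes 2.99, 1.15 and 1.07). Those that fell were P4ha1 and P4ha2, subunits of collagen prolyl hydroxylase (log2 fold changes -0.50 and -0.75). Vegfa, the vascular growth factor, had a log2 fold change of 1.51 ± 0.49 (SE) and was above in every cachectic mouse, but did not pass edgeR's test. DESeq2 called it, together with Adm (0.81) and Egln1 (-0.53).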

How the data were processed

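RNA-seq of eWAT from 3 control and 3 cachectic mice was grouped by the labels. The authors aligned filtered reads with Hisat2, counted them per gene with featureCounts 1.5.0-p3 and deposited these raw counts. FPKM values, which the authors scaled to gene length and depth, were deposited too and served as an alternative. The submitters' processing notes name the build mm9, but 98.3% of the listed genes found in GENCODE M21 carry its GRCm38 coordinates, as do 35 of the 36 enzyme genes (Pgam1 differs), and coordinates are given as in the files. The authors' deposited table of fold changes and p-values, made with DESeq2 1.16.1, was not used, nor were its 6 per-sample columns.

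The counts were tested with edgeR 4.0.16 under R 4.3.3, after filtering by filterByExpr (TMM factors of 0.937 to 1.07, quasi-likelihood test without covariates, Benjamini-Hochberg adjustment over 16003 genes, threshold 0.05). The standard error is the size of the log2 fold change divided by the square root of F. The biological coefficient of variation was 0.264. The methods treat samples as separate mice. Their p-values weigh the group difference against the spread between samples, which edgeR estimates in part across all genes tested. Exact permutation tests used log2 CPM with a pseudocount of 0.5. Aldoa has a second row with 5 to 14 counts, and the row with most counts was used. Nnt, which has 2 rows, is not reported. No 2 samples had near-identical counts.

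The genes, branches and lists were chosen with earlier results of these data known. Genes that passed the test, and the most abundant isozyme of each family, are given for every mouse, other genes by range, and list genes where they passed (at most 5 a list and direction), apart from 1 gene not reported here. All 36 genes had promoter windows in the RefSeq table, and the motif was chosen after the data were seen. Shared 100-base stretches were counted against all GENCODE M21 transcripts. The 17 other settings were RLE factors, plain totals, no filter, at least 10 counts in every sample, omission of each mouse, DESeq2 1.42.0, a block for the replicate number, limma-voom and limma 3.58.1 on log2(FPKM + 1) or log2(FPKM + 0.1), and, chosen after seeing the data, a newer quasi-likelihood form and protein-coding genes alone. Scripts were tested on simulated data.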

Additional observations from a re-analysis of the deposited data

How the results depend on the processing

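All 8 enzyme genes called kept their direction under the 17 other settings. Pgd and Hk2 also kept their side of the threshold in all 17, Tpi1 and Eno3 in 16, Pfkfb4 in 15, Eno1 in 13, and Gyg and Pygm in 9. With each mouse left out, between 0 and 3 enzyme genes were higher and between 2 and 10 lower, against 382 to 1197 and 446 to 1142 of all genes tested. Branch medians then ranged from -0.11 to 0.15 (hexokinases and Gpi1), -0.30 to 0.17 (phosphofructokinases), -0.66 to -0.27 (Pfkfb), -0.43 to -0.22 (aldolase to pyruvate kinase), -0.40 to -0.27 (lactate dehydrogenases), -0.58 to -0.23 and -0.63 to -0.41 (oxidative and non-oxidative pentose phosphate), -0.36 to -0.12 (glycogen synthesis) and -1.0 to -0.77 (phosphorylases). DESeq2 called 13 enzyme genes lower, and with log2 FPKM 1 was higher at either pseudocount (1 or 0.1). The causes were not tested. Replicate numbers belong to different mice and same-numbered samples did not deviate together (correlations from -0.0113 to 0.00849). With these numbers as a replicate block, 913 of all genes were higher and 968 lower, and 1 enzyme gene was higher and 4 lower. The calls of Eno1, Gyg and Pygm were lost under the block. The sign turned in 14 of 611 comparisons, over 8 genes, none called. Leaving out mice gave log2 fold changes of -0.29 to 0.13 (Gapdh), -0.30 to 0.26 (Ldhb), -0.12 to 0.22 (Pygl), -0.45 to 0.046 (Rpia), -0.013 to 0.19 (Pfkfb2), -0.043 to 0.16 (Pgk1), -0.30 to 0.17 (Pfkl) and -0.23 to 0.26 (Pfkm). Plain totals gave 0.0039 for Pfkm and 0.030 for Ldhb, and protein-coding genes alone gave 0.0033 for Ldhb. With at least 10 counts in every sample Aldoc was not tested. Depth limits the genes with few counts, Aldoc, Gapdh and Pygm among them.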

Other observations

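Several enzymes of these pathways that are known from liver, muscle or sperm were counted in control replicate 1 and hardly in the other 5 mice. Pklr, the pyruvate kinase of liver and red cells, was at 13.4 CPM in control replicate 1 and at 0 in the other 5. Fbp1 and Fbp2, the fructose bisphosphatases of gluconeogenesis, were at 12.9 and 18.8 CPM there and at most at 0.459 and 0.758 CPM in the others. Ldhc, the lactate dehydrogenase of sperm, was at 5.22 against at most 0.292 CPM, and Eno4 at 7.22 against at most 0.590 CPM. These genes were singled out after their values were seen, and no comparison of groups rests on them. A list of 8 epididymis and sperm markers summed to 30.9 CPM in the same mouse and to 3.67 to 10.8 CPM in the others, with 1 of the 8 tested. This list includes Ldhc, given above, and the glycolysis genes Pgk2 and Gapdhs, so its sum is not separate from these enzymes. Adam7, Prm1, Tnp1, Ldhc and Pgk2 were highest in that mouse, and Crisp1, Rnase10 and Gapdhs were not. The cause was not tested.

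None of the markers tested in the remaining lists passed edgeR's test. At an unadjusted edgeR p-value under 0.05 there were 2 of 4 B cell markers, 1 of 3 T cell markers and 0 of 4 mesothelial markers. The share of all genes under that limit is not given here. DESeq2 called 1, 0 and 0, where it called 24.3% of all genes tested. Median log2 fold changes were -1.01 over 4 B cell markers, -1.12 over 3 tested T cell markers and -0.37 over 4 mesothelial markers.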
